A study of Mus musculus with 3 samples.

Results

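The 10 genes described here mark the opposite ends of mouse pluripotency. Zfp42, Dppa3, Esrrb, Klf2, Klf4 and Tfcp2l1 were taken as the 6 naive members, and Fgf5, Otx2, Pou3f1 and Dnmt3b as the 4 primed members. They are marker genes listed by symbol, drawn with earlier results of these data known, out of 27755 genes listed for each of the D10 culture and the E14.5 tail and 25936 listed for D6. All 10 were listed in all 3 files. Naive pluripotency is the state of the preimplantation epiblast and is held in mouse embryonic stem cells by LIF and a circuit of transcription factors that includes KLF factors, ESRRB and TFCP2L1. After implantation the epiblast passes through a formative to a primed state, in which Fgf5, Otx2, Pou3f1 and the de novo methyltransferase Dnmt3b are on while Pou5f1 is kept. The core genes Pou5f1 and Sox2 are expressed at both ends, so the balance between the 2 lists, rather than Pou5f1 itself, places a cell along this path.

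The cells came from a differentiation of mouse embryonic stem cells toward tendon and fibrocartilage, each stage being a single 10x 3′ library. The stem cells were derived from blastocysts carrying the ScxGFP transgene, a reporter of the tendon transcription factor Scx, and were kept with serum and LIF on feeder fibroblasts. Which of the study's ScxGFP lines gave the libraries is not given in the sources used here. The D6 PM library (5954 cells) was taken on day 6, after culture as embryoid bodies with the BMP inhibitor LDN-193189 (500 nM) and then with the Wnt agonist CHIR (5 µM) added. The D10 culture library (7821 cells) followed on day 10, after further culture as a monolayer with TGFβ1 (10 ng/mL), the hedgehog agonist SAG (100 nM) and FGF2 (10 ng/mL). The third library held 2052 cells of E14.5 mouse tail and served as embryonic tissue for comparison. No deletion or knockdown was made in any group.

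Median depth was 8171 unique molecular identifiers (UMIs) per cell at D6, 5622 at D10 and 13512 in the tail. Between 3 and 10 cell barcodes were shared by any pair of libraries, and 81, 116 and 9 cells were called as doublets at D6, at D10 and in the tail. With 1 library per stage no test between stages was possible, and stage and library cannot be told apart. Levels are UMIs summed over the cells of a group and scaled to a group total of 1000000 UMIs (CPM). Ranges in parentheses are exact 95% intervals of counting error only, so they say nothing of the spread between cultures.

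Groups of cells follow the numeric cluster codes that the authors deposited with each cell. The pluripotent-like cells at D6 were code 2, with 1038 cells (17.4% of the library) and a summed level of Pou5f1, Nanog, Sox2 and Dppa5a of 7584 CPM, against 54.1 CPM in code 1 and 58.7 CPM in code 3. Dppa5a alone stood at 6302 CPM in code 2. Pou5f1, Sox2, Utf1, Tdgf1, Dppa4 and L1td1 were also higher in code 2 than in codes 1 and 3. Sall4 (164 CPM in code 2, 184 and 198 CPM in codes 1 and 3) and Lin28a (24.8, 64.9 and 60.9 CPM) were lower there. At D10 the pluripotent-like cells were code 3, with 1088 cells (13.9%), with 5069 CPM of Pou5f1, Nanog, Sox2 and Dppa5a together, in which all 9 pluripotency markers reached 20 CPM. By its number of cells this group is the cluster that the study names fibrocartilage, and code 5 is the one in which the study places Nanog-expressing culture cells. The codes were therefore named from markers only. In code 3 the cartilage genes Col2a1 and Acan stood at 26.9 and 3.07 CPM, against 2271 and 208 CPM in code 4, and Nanog stood at 131 CPM in code 3, 78.3 CPM in code 5 and 0.902 CPM in code 4. Markers of germ cells, which also express Dppa3, were higher as a sum in the pluripotent-like cells. They summed to 307 CPM in D6 code 2, with 5 of 7 reaching 20 CPM, and to 142 CPM in D10 code 3, with 3 of 7. The sums were 30.2 CPM in D6 codes 1 and 3 and 11.1 CPM in D10 codes 1, 2 and 4. Among the 7 markers Tfap2c stood at 111 and 40.2 CPM, Dazl at 56.7 and 31.3 CPM and Ddx4 at 29.1 and 31.3 CPM in D6 code 2 and D10 code 3, and none of the 7 was at 0 in either. Not all followed these cells. Prdm1, 1 of the 5, was at 29.3 CPM in D6 code 2, 23.0 CPM in codes 1 and 3 together and 33.9 CPM in code 5. Nanos3 was at 2.13 CPM in D10 code 3 and 3.92 CPM in D10 codes 1, 2 and 4. The meiotic and germline genes Morc1, Hormad1 and Tdrd12 were among the 10 leading genes of D10 code 3. The part of such cells in the levels below was not tested. D10 codes 5 (556 cells) and 6 (435 cells) also carried 9 of 9 pluripotency markers at that level, but their leading genes included those of other lineages, Actc1, Myh3 and Ttn of muscle in code 5 and the embryonic globins Hbb-y and Hba-x in code 6, and both were left unnamed. The 10 leading genes of code 5 also held Trh (513 CPM), Prtg (164 CPM) and Pim2 (154 CPM). Code 13 (43 cells) was endoderm-like, with 7 of 9 endoderm markers at or over 20 CPM, among them Cubn at 430 CPM and Amn at 751 CPM. D6 codes 1 (2539 cells) and 3 (821 cells) expressed the endoderm genes Sox17 at 519 and 531 CPM and Foxa2 at 86.6 and 105 CPM, and were led by other genes, so they are given by number. D10 codes 1, 2 and 4 (5172 cells, 66.1% of the library) had 34.3 CPM of Pou5f1, Nanog, Sox2 and Dppa5a together and served as background.

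RefSeq promoters (GRCm38.p6) were at hand for 8 of the 10 genes, with 12 start sites. No binding or accessibility was measured here. The 250 bases before each start were searched on both strands for the OCT4 octamer (ATGCAAAT), a KLF element (GGGNGTGG), a SOX element (ACAATGG), an ESRRB element (AAGGTCA) and an OTX element (GGATTA), none of which contains another. The promoters shown are those of 2 naive genes and 1 primed gene that held a match, with the matched letters in capitals and position -1 being the last base before the start. That of Tfcp2l1 (chr1:118627695-118627944, plus strand) had KLF matches on the reverse strand at -61 to -54 and -47 to -40, that of Zfp42 (chr8:43307010-43307259, minus strand) had a reverse octamer at -186 to -179 and a reverse KLF match at -75 to -68, and that of Fgf5 (chr5:98253934-98254183, plus strand) had a forward KLF match at -218 to -211 and a reverse one at -112 to -105.
Tfcp2l1: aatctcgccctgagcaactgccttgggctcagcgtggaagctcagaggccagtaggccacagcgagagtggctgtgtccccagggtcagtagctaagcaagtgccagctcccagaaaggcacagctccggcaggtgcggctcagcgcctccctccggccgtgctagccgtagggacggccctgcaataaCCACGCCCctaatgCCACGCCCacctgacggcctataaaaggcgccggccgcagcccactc
Zfp42: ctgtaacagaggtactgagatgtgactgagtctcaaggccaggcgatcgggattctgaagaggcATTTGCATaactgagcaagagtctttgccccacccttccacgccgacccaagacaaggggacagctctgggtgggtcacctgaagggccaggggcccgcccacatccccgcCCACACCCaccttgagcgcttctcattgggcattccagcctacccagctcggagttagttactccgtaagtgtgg
Fgf5: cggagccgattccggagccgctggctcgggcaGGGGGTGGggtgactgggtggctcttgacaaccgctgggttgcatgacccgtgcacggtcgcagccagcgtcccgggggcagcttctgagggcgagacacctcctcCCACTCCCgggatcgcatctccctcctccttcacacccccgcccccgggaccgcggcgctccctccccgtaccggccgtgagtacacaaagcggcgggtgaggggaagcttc
Of 32851 promoters of this length, 15.9% held the KLF letters, 1.6% the octamer, 3.02% the SOX letters, 4.08% the ESRRB letters and 6.25% the OTX letters. KLF letters thus stood before a primed gene as well as before naive genes. Of the Otx2 starts, 1 held an OTX match at -211 and another held KLF matches, and none of these letters were found in the windows of Klf2, Klf4, Esrrb or Dnmt3b. The lack of a match says only that these letters are not in these windows.

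At D6 the naive members were concentrated in code 2. Zfp42 (Rex1), a zinc finger protein lost early on exit from the naive state, stood at 158 CPM (151-165) in code 2, 0.935 CPM in code 1 and 1.05 CPM in code 3. Dppa3 (Stella), a maternal factor that limits DNA methylation, stood at 463, 1.60 and 1.57 CPM in these codes. The estrogen-related receptor Esrrb stood at 58.9, 1.21 and 0.917 CPM. For all 3 genes codes 1 and 3 overlapped in their intervals and lay far below code 2. Tfcp2l1, a grainyhead-family factor downstream of LIF, stood at 139, 11.8 and 6.29 CPM. The Krüppel-like factors, which bind GC-rich promoters, were likewise high in code 2, with Klf2 at 596, 6.55 and 5.89 CPM and Klf4 at 128, 13.2 and 12.7 CPM. Code 2 held 98.4% of all Zfp42 UMIs of the D6 library, 98.9% of Dppa3, 94.8% of Esrrb, 93.4% of Klf2 and 84.9% of Tfcp2l1, but 65.0% of Klf4. D6 code 5, with 11.1% of the cells, held 16.6% of the Klf4 UMIs and 3.07% of the Klf2 UMIs. Codes 1 and 3 together held 14.0% and 2.11% of these.

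The primed members at D6 did not follow a single group. Fgf5, a secreted growth factor of the postimplantation epiblast, was at 2.87 CPM (35 UMIs) in code 2 but at 79.7 CPM in code 1 and 60.4 CPM in code 3. Otx2, a homeobox factor that redirects OCT4 to new enhancers on exit from the naive state and that also patterns anterior tissues, was at 9.77, 118 and 108 CPM. Both genes were thus low in the pluripotent-like cells and high in the Sox17-expressing cells beside them, and codes 1 and 3 held 96.5% of the Fgf5 UMIs and 94.2% of the Otx2 UMIs of the library. The POU factor Pou3f1 (Oct6) went the other way, with 15.0 CPM in code 2, 2.26 CPM in code 1 and 1.96 CPM in code 3. Dnmt3b stood at 28.7, 30.6 and 38.4 CPM, and code 1 lay within the interval of code 2 (25.8-31.9).

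Summed over the lists, D6 code 2 carried 1542 CPM (1520-1565) of the naive members and 56.4 CPM (52.3-60.8) of the primed members, whereas codes 1 and 3 together carried 33.2 CPM and 224 CPM. The naive sum was 46.4-fold higher (43.3-49.7) and the primed sum 3.97-fold lower (3.67-4.30) in code 2, or 6.90-fold lower (6.18-7.73) without Dnmt3b. All 6 naive members were at least 2-fold higher and 2 of the 3 primed members with enough UMIs, Fgf5 (25.8-fold) and Otx2 (11.8-fold), were at least 2-fold lower. Over all 7730 genes with enough UMIs (at least 100 over both groups and 20 CPM in the higher one), 12.9% were at least 2-fold higher and 14.3% at least 2-fold lower in code 2. These codes were made from the same cells and genes, so the counts describe the clusters and nothing was read from them.

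**Figure D1:**
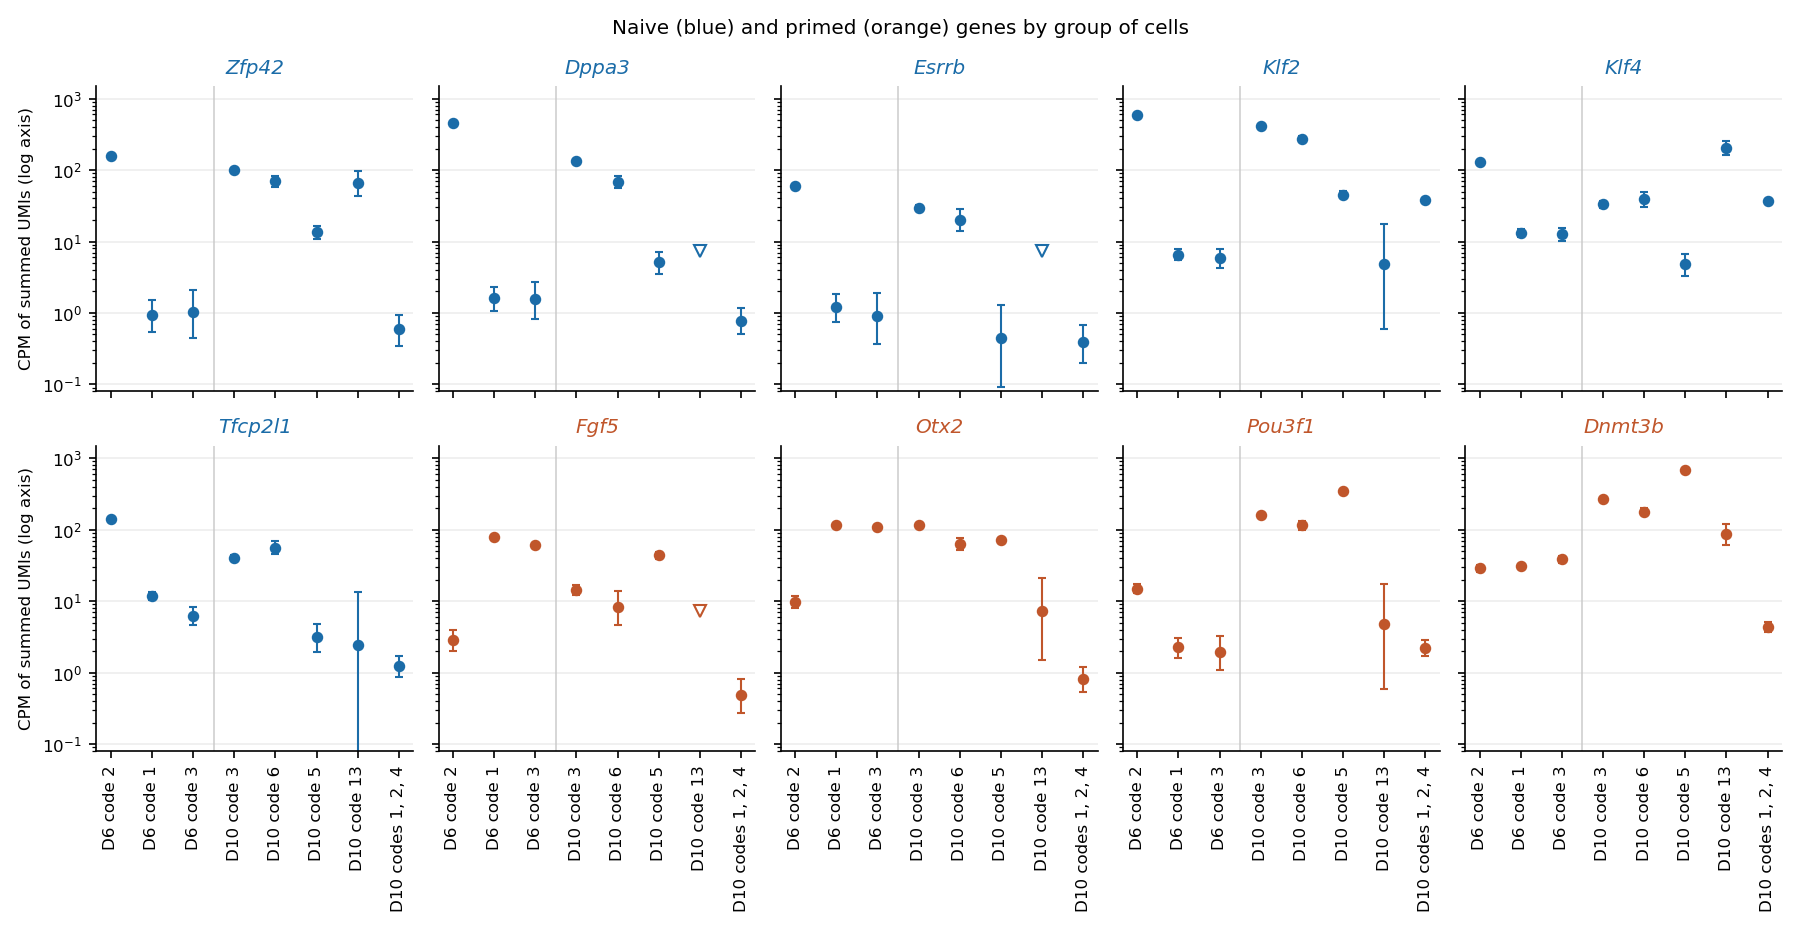
CPM of summed UMIs (log axis) for each of the 10 members in D6 codes 1, 2 and 3 and in D10 codes 3, 5, 6, 13 and 1, 2 and 4 together; points are levels, bars exact 95% intervals of counting error, and open triangles the limit of 3 counts where no UMI was found. The 6 naive members peak in D6 code 2 except Klf4, which is higher in D10 code 13 (206 against 128 CPM), whereas Pou3f1 and Dnmt3b peak in D10 code 5 at 345 and 674 CPM.

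At D10 both lists were expressed in code 3. The naive members there were at 100 CPM for Zfp42 (94.4-106), 135 CPM for Dppa3, 29.5 CPM for Esrrb, 415 CPM for Klf2, 33.0 CPM for Klf4 and 40.7 CPM for Tfcp2l1. The primed members were at 14.4 CPM for Fgf5, 115 CPM for Otx2, 161 CPM for Pou3f1 and 273 CPM for Dnmt3b. In codes 1, 2 and 4 together, 8 of the 10 members lay under 5 CPM, with Dnmt3b at 4.38 CPM and the others lower. The exceptions were the KLF factors, with Klf2 at 38.3 CPM (45.4, 32.2 and 22.6 CPM in codes 1, 2 and 4) and Klf4 at 36.7 CPM (29.1, 31.5 and 91.4 CPM).

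Klf4 therefore did not separate the pluripotent-like cells from the rest of the D10 culture, its ratio of code 3 to codes 1, 2 and 4 being 0.900 (0.800-1.01). The naive sum in code 3 was 9.66-fold and the primed sum 71.2-fold that of codes 1, 2 and 4. Without Klf2 and Klf4, the naive ratio was 102 (82.7-127). Of the members with enough UMIs, 5 of 6 naive and 3 of 3 primed genes were at least 2-fold higher in code 3, where 19.5% of 8205 genes were higher and 21.5% lower by that measure, again a description of the clusters only. Codes 3, 5 and 6 made up 26.6% of the D10 cells and held between 80.6% and 98.1% of the UMIs of each member other than Klf4, of which they held 26.5% while codes 1, 2 and 4 held 61.4%.

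Between the pluripotent-like cells of the 2 stages, the naive genes were lower and the primed genes higher at D10. The naive sum went from 1542 CPM (1520-1565) at D6 to 753 CPM (738-769) at D10, and the primed sum from 56.4 CPM (52.3-60.8) to 563 CPM (549-577). The naive sum in D10 code 3 was 0.488 of that in D6 code 2 (0.476-0.501) and the primed sum 9.98-fold higher (9.22-10.8). Median depth was close in the compared cells, 11208 UMIs in D6 code 2 and 10369.5 in D10 code 3, and 38 and 26 of their cells were called as doublets.

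The 6 naive members fell into a group that was lower by over 3-fold and one that was lower by no more than 2-fold. Klf4 was 3.87-fold lower (3.46-4.34) at D10, Dppa3 3.42-fold (3.23-3.61) and Tfcp2l1 3.41-fold (3.08-3.79), and the intervals of these 3 overlapped. Esrrb was 1.995-fold lower (1.75-2.27), just inside the 2-fold limit, and passed it when doublets were left out. Zfp42 was 1.58-fold lower (1.47-1.70) and Klf2 1.44-fold lower (1.39-1.49).

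The primed members differed more. Otx2 was 11.8-fold higher (9.76-14.3) at D10, Pou3f1 10.7-fold (9.18-12.5) and Dnmt3b 9.50-fold (8.50-10.6). In D6 code 2, Otx2 (9.77 CPM) and Fgf5 were not above the highest of the other D6 codes outside 1 and 3, since codes 4, 5 and 6 held Otx2 at 6.25, 0.848 and 10.6 CPM and Fgf5 at 3.95, 1.19 and 2.11 CPM, so their D6 levels are at background and the ratios depend on it. Pou3f1 (1.32, 3.05 and 1.58 CPM) and Dnmt3b (12.8, 2.20 and 14.8 CPM) were lower in these codes than in code 2. Fgf5 was 5.01-fold higher (3.47-7.44), but at 14.4 CPM against 2.87 CPM it was under the minimum of 20 CPM and was not counted. When cells called as doublets were left out, Fgf5 was at 14.9 CPM at D10 and 1.65 CPM at D6, a ratio of 9.02, and in cells thinned to 3000 UMIs the ratio was 11.3. Pou3f1 moved the other way on thinning, to 7.02.

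By the 2-fold limit, 3 of 6 naive members were lower, none was higher, and 3 of 3 primed members were higher. Otx2 and Pou3f1 were under 20 CPM in D6 code 2 and entered this count only through their D10 levels. Nothing was therefore read from the count of primed members. Among the 7149 genes with enough UMIs, 3.22% were at least 2-fold higher and 2.74% at least 2-fold lower at D10. The median log2 ratio of D10 to D6 was -1.38 over the naive members and 3.41 over the counted primed members, against 0.04 over all counted genes. The primed median rests on the same 3 genes, so nothing was read from it either. The core genes differed less, with Pou5f1 at 545 CPM at D10 and 460 CPM at D6 (ratio 1.19) and Sox2 at a ratio of 0.752.

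**Figure D2:**
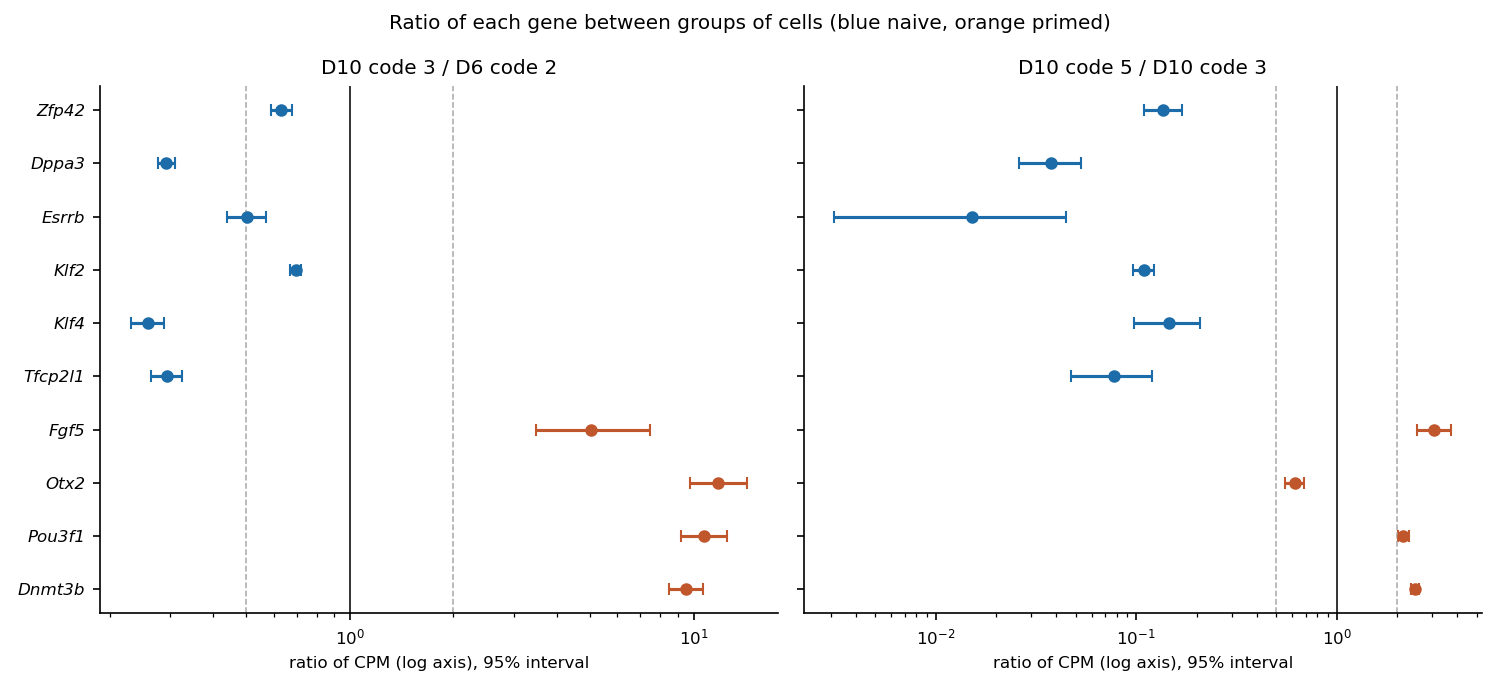
Ratio of CPM (log axis) for each naive (blue) and primed (orange) member in 2 comparisons, D10 code 3 over D6 code 2 and D10 code 5 over D10 code 3; bars are exact 95% intervals of counting error, the solid line marks 1 and the dashed lines 2-fold. In D10 code 3 over D6 code 2 all 6 naive members lie below 1 (0.258 to 0.696) and all 4 primed members above it (5.01 to 11.8).

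Code 5 of the D10 culture carried the primed genes with far lower naive levels than code 3. Dnmt3b stood there at 674 CPM (654-694) and Pou3f1 at 345 CPM (331-359), which were 2.47-fold (2.36-2.58) and 2.15-fold (2.02-2.28) the levels of code 3. Fgf5 stood at 44.2 CPM, 3.06-fold higher (2.53-3.72), and Otx2 at 71.0 CPM, 0.616 of the level of code 3. The primed list was thus not raised as a whole, Otx2 being lower where the other 3 were higher.

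The naive members were all lower in code 5 than in code 3. Zfp42 was at 13.6 CPM (7.34-fold lower), Dppa3 at 5.09 CPM (26.6-fold), Tfcp2l1 at 3.14 CPM (12.9-fold) and Klf4 at 4.79 CPM (6.89-fold). Esrrb had 3 UMIs in code 5 (0.449 CPM, a ratio of 0.0152 with an interval of 0.00312-0.0449). Klf2, at 45.2 CPM, lay close to the 38.3 CPM of codes 1, 2 and 4, and the naive sum of code 5 was 0.927 (0.839-1.02) of that background. Without Klf2 and Klf4, which make up most of the background's naive UMIs, code 5 held 22.3 CPM from 149 UMIs, and the ratio of CPM to the background (92 UMIs) was 7.42 (5.69-9.74). Zfp42 alone was 23.2-fold higher (13.9-40.8) than in the background. Pou5f1 stood at 351 CPM, 0.645 of its level in code 3. Other pluripotency markers were lower as well, with Sox2 at 160 CPM against 373 CPM in code 3 and Dppa5a at 376 against 4021 CPM. Dppa4 was at 34.6 against 144 CPM, Tdgf1 at 150 against 405 CPM and Utf1 at 405 against 764 CPM. L1td1 (438 against 435 CPM) and Sall4 (161 against 148 CPM) were not lower, and Lin28a was higher (154 against 63.4 CPM).

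All 6 naive members were at least 2-fold lower and 3 of 4 primed members at least 2-fold higher in code 5 than in code 3, where 6.48% of 7346 genes were lower and 5.1% higher, and as both codes come from clustering these cells nothing was read from the counts. The muscle markers of code 5 summed to 364 CPM, with 3 of 4 at or over 20 CPM, and lay in few cells. Of 531 cells thinned to 3000 UMIs, 500 (94.2%) had no muscle marker UMI, and in these Dnmt3b was at 632 CPM, Pou3f1 at 336 CPM, Otx2 at 80.0 CPM, Fgf5 at 38.0 CPM and Pou5f1 at 340 CPM. The 26 cells with 2 or more muscle UMIs held 4 Dnmt3b UMIs (51.3 CPM) and no Pou3f1 UMI.

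Code 6 was shallow, with a median of 2399 UMIs, and most of its members lay somewhat below code 3. Klf2 was at 273 CPM, Zfp42 at 69.9 CPM, Dppa3 at 68.7 CPM, Dnmt3b at 178 CPM and Pou3f1 at 115 CPM, all below code 3, whereas Tfcp2l1 at 56.1 CPM was above it and Klf4 at 38.8 CPM overlapped it in its interval. The naive sum was 0.700 and the primed sum 0.646 of code 3, and all 9 members with enough UMIs lay within 2-fold of it. Of all 7439 genes with enough UMIs, 382 were at least 2-fold higher and 108 at least 2-fold lower in code 6. Most genes thus lay within 2-fold, and nothing was read from the count of members. Its blood markers summed to 968 CPM, and 27 of its cells (6.21%) were called as doublets, a larger share than in any other code of either culture. Among the 166 cells with 3000 UMIs or more, 140 (84.3%) had no blood UMI and held Klf2 at 324 CPM and Pou3f1 at 164 CPM. The same 140 cells held the tendon gene Scx at 364 CPM beside Pou5f1 at 360 CPM, whereas Scx was at 70.7 CPM in code 3, and its part in the lower levels of code 6 was not tested. The 25 cells with 2 or more blood UMIs held a single UMI of any member, of Tfcp2l1. The other 269 cells of code 6 were too shallow for this split.

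Of the naive members, the endoderm-like code 13 held mainly Zfp42 and Klf4. Zfp42 was at 65.6 CPM (43.2-95.4) and Klf4 at 206 CPM (165-255), 6.26-fold higher than in code 3. Klf2 was at 4.86 CPM from 2 UMIs, and Tfcp2l1 had 1 UMI. Dppa3, Esrrb and Fgf5 had no UMI, which allows up to 7.29 CPM each. The pluripotency-associated Dppa5a was at 3197 CPM in the same cells, with Pou5f1 at 68.0 CPM and no UMI of Sox2, Nanog or Fgf4. Of the primed members Dnmt3b alone was above 20 CPM, at 87.5 CPM. With 43 cells, this group gives the widest intervals.

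Other genes of the 2 states were read from lists chosen by function. Of 11 further naive genes, 9 had enough UMIs between D10 code 3 and D6 code 2, of which 6 were lower and 1 higher, with a median log2 ratio of -1.58, where 2.74% of all 7149 counted genes were lower and 3.22% higher. Nanog, a factor whose level fluctuates between stem cells, was at 131 CPM at D10 and 326 CPM at D6 (2.50-fold lower), and Tbx3 was 4.44-fold, Klf5 3.66-fold, Nr5a2 4.01-fold, Tcl1 2.98-fold and the threonine dehydrogenase gene Tdh 4.20-fold lower. Nr5a2 and Tbx3 were under 20 CPM in D10 code 3 and passed the minimum only through D6. Fgf4, the ligand that drives exit from the naive state, was the 1 that was higher, at 222 CPM against 91.5 CPM (2.43-fold). Of 6 counted formative and primed genes outside the members, 2 were higher, Dnmt3a (157 against 26.8 CPM, 5.86-fold, with 110 CPM in D10 codes 1, 2 and 4 and 48.3 CPM in D6 codes 1 and 3) and the kinase gene Pim2 (6.58-fold), and the median log2 ratio was 0.25. Pim2 was under 20 CPM in D6 code 2 and passed the minimum only through D10.

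Within the DNA methylation machinery, the 2 de novo enzymes moved while the rest did not pass 2-fold. Dnmt3a and Dnmt3b were the 2 of 7 counted genes that were higher at D10, against 3.22% of all counted genes. Dnmt3b is itself a primed member and Dnmt3a was already counted among the formative genes, so nothing further was read from this count. The cofactor gene Dnmt3l had a ratio of 1.72, Uhrf1 1.57, the maintenance enzyme gene Dnmt1 1.13, and the oxygenase genes Tet1 and Tet2 1.26 and 0.971. In code 5 against code 3, Dnmt3b and Tet3 (2.60-fold) were higher, and Dnmt3l (7.48 against 176 CPM), Tet1 (2.44-fold) and Tet2 (3.69-fold) were lower, whereas Dnmt3a was at 145 against 157 CPM. Of all 7346 counted genes, 5.1% were higher and 6.48% lower in that comparison, and nothing was read from it. Code 5 thus had Dnmt3b at its highest level of any group named here with Dnmt3l at 0.0425 of its level in code 3. Among the other formative genes, Sox3 (4.22-fold), Pim2 (4.19-fold) and Car14 (6.71-fold) were higher in code 5, and Fgf4 was 6.34-fold lower while its paralog Fgf8 was 9.62-fold higher. In a list of 20 paralogs of the members, 12 were counted, of which 1 was higher and 4 were lower in code 5.

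To ask whether single cells held both programs, each cell was thinned to 3000 UMIs and scored for any UMI of each list. In D6 code 2 (918 cells), 81.8% of cells had naive UMIs only, 9.91% had both, 1.63% primed only and 6.64% neither. Its share with a primed UMI was 11.5%, against 5.45%, 1.91% and 6.55% in D6 codes 4, 5 and 6, and its shares for Otx2 (2.07%) and Fgf5 (0.436%) did not exceed the highest of those codes and are read as background. Median depth before thinning was 11208 UMIs in code 2 and 7709, 8627.5 and 9118 in codes 4, 5 and 6. In D10 code 3 (1081 cells) these shares were 34.5%, 42.4%, 15.6% and 7.49%. In D10 code 5 (531 cells) they were 2.82%, 13.2%, 65.0% and 19.0%. The background cells of codes 1, 2 and 4, with an unthinned median of 5131 UMIs against 10369.5 in code 3 and 12508 in code 5, had a naive UMI in 17.3%, a primed UMI in 1.92% and both in 0.437%. With all 6 naive genes the naive share of code 5 was 16.0%, close to that of the background, and its primed share was 78.2%.

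Cells with both lists in D10 code 3 (42.4%, 39.4-45.4) were about as frequent as the product of the shares of each list would give (44.6%). Klf2 and Klf4, which the background also expressed, were then set aside. With the other 4 naive genes, 0.721% of background cells, 4.90% of code 5 cells and 53.7% of code 3 cells had a naive UMI, and 28.2% (25.5-31.0) of code 3 cells had both lists against 31.2% for independence. At 5000 UMIs per cell the share with both lists, with all 6 naive genes, was 59.9% in D10 code 3 and 18.7% in D6 code 2, so these shares moved with the depth.

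**Figure D3:**
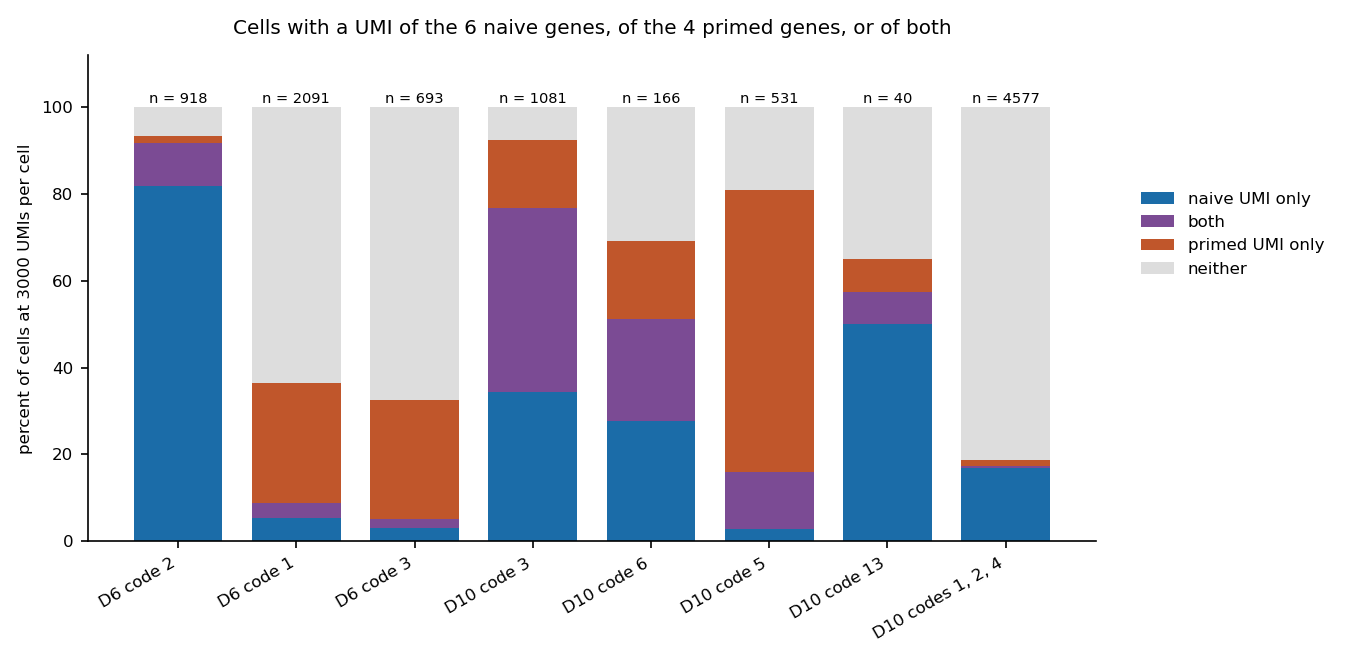
Percent of cells, thinned to 3000 UMIs, with UMIs of naive members only, of both lists, of primed members only and of neither, in each group of cells. Naive-only cells make up 81.8% of D6 code 2, cells with both lists 42.4% of D10 code 3, and primed-only cells 65.0% of D10 code 5.

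Amounts of the lists were then compared within the D10 cells, and they were graded. Cells of D10 code 3 were split by their UMIs of Zfp42, Dppa3, Esrrb and Tfcp2l1 into those with 0 (500 cells), 1 (313), 2 (149) and 3 or more (119). The primed sum over these bins was 676 CPM (635-719), 526 CPM (481-575), 289 CPM (241-343) and 196 CPM (153-248). It was lower in each bin with more naive UMIs, and the intervals did not overlap up to the bin with 2 UMIs.

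The primed genes did not share this slope equally. Pou3f1 went from 217 CPM (194-242) to 129, 33.6 and 39.2 CPM, and Dnmt3b from 334 CPM (305-365) to 247, 128 and 98.0 CPM. Otx2 was at 113, 138, 128 and 56.0 CPM, and its first 3 bins overlapped. Pou5f1 stayed between 508 and 603 CPM, so the bins with few naive UMIs were not short of it. Dppa5a was at 3342, 4532, 5720 and 6101 CPM and Nanog at 98.0, 141, 221 and 238 CPM, and both were higher with more naive UMIs. In D6 code 2 the primed sum over the same bins was 70.4, 40.8, 45.8 and 37.0 CPM, and Pou5f1 was at 354, 406, 445 and 575 CPM. These bins were cut from measured UMIs and are ranges of a continuous count, not cell types.

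**Figure D4:**
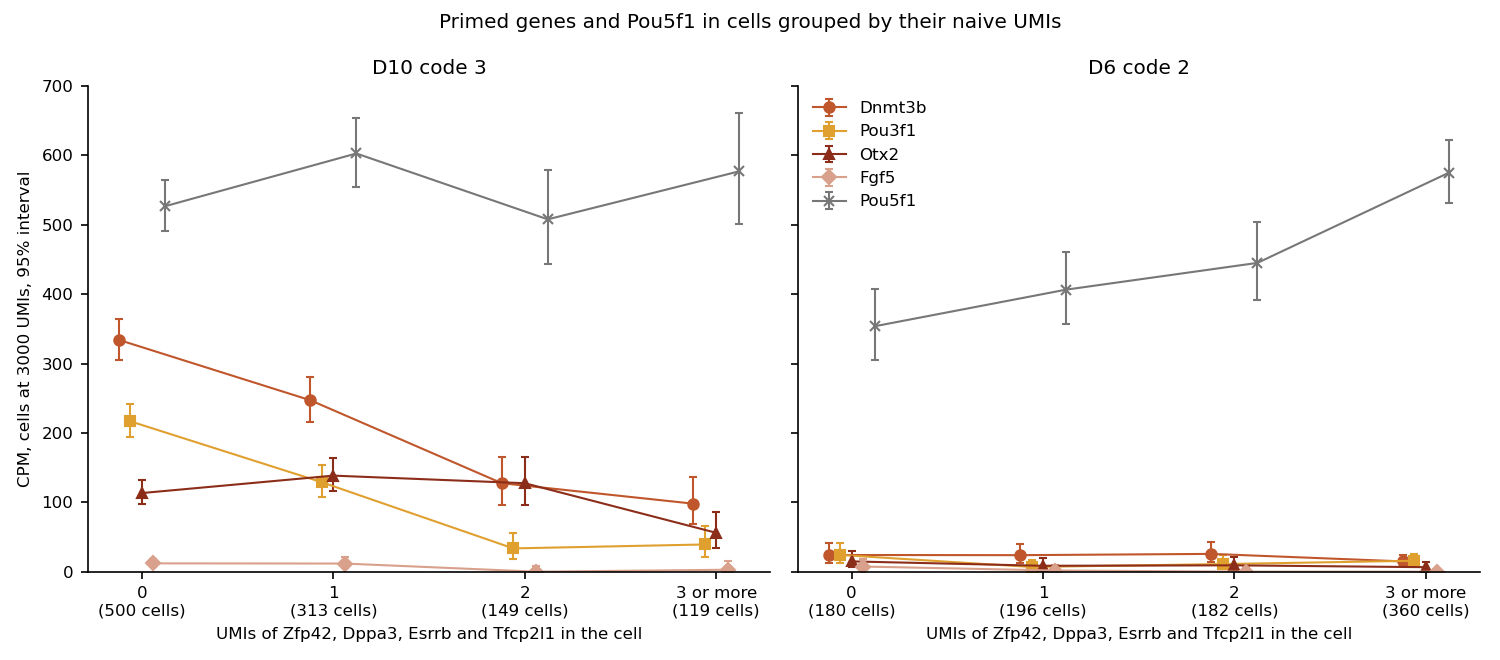
CPM of each primed member and of Pou5f1 in cells of D6 code 2 and D10 code 3 split by their UMIs of 4 naive genes (0, 1, 2, 3 or more) after thinning to 3000 UMIs; bars are exact 95% intervals of counting error. In D10 code 3, Dnmt3b runs from 334 CPM at 0 naive UMIs to 98.0 CPM at 3 or more and Pou3f1 from 217 to 39.2 CPM, with Pou5f1 between 508 and 603 CPM.

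Pairs of members were then compared for detection in the same cell, as the ratio of observed to independent expectation among pairs with at least 5 cells expected. In D10 code 3 the 15 naive pairs were all above 1 (median 1.23, range 1.10-2.03), the 6 primed pairs were all above 1 (median 1.55), and 3 of 21 naive-primed pairs were (median 0.813, range 0.286-1.17). The lowest pairs all held Pou3f1, with Klf4 in 7 cells against 24.5 expected, Tfcp2l1 in 12 against 34.1, Esrrb in 9 against 23.5 and Dppa3 in 29 against 67.9. Fgf5 and Pou3f1 were found together in 18 cells against 6.37 expected. In D6 code 2, 13 of 15 naive pairs and 7 of 16 naive-primed pairs were above 1, with medians of 1.09 and 0.942. In D10 code 5 all 6 primed pairs were above 1 (median 1.34). All cells of a code share a library and a depth, and no test was made.

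**Figure D5:**
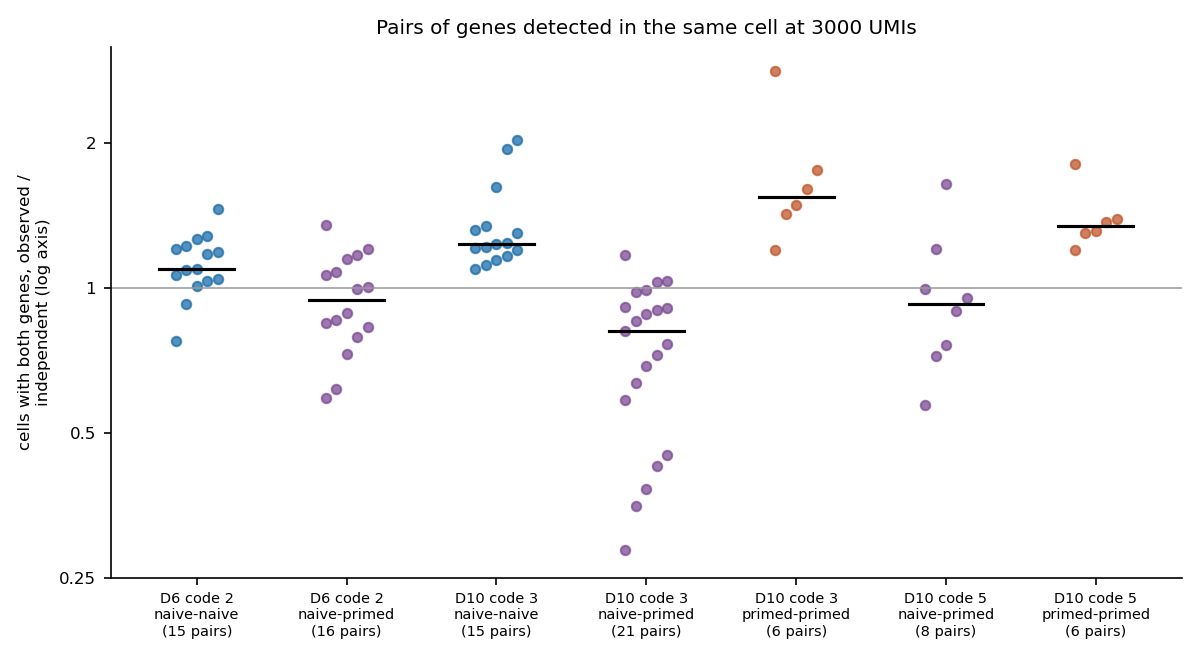
Observed over independent number of cells with both members of a pair at 3000 UMIs per cell (log axis), by kind of pair, in D6 code 2, D10 code 3 and D10 code 5; each point is a pair with at least 5 expected cells, short bars are medians and the line at 1 is independence. In D10 code 3 all 15 naive pairs and all 6 primed pairs lie above 1 and 18 of 21 naive-primed pairs below it.

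Across the 17 codes of D6 and D10 with at least 40 cells, the genes outside the members whose log2(CPM + 1) ran most like the naive sum, among 7284 genes, were Zswim1 (r = 0.89), Avpi1 (0.87), Dennd2c (0.82), Tbc1d10b (0.82) and Mcl1 (0.81). Those most like the primed sum were the RNA-binding protein gene Lin28a (0.93), E-cadherin (Cdh1, 0.93), Gldc (0.91), Esrp1 (0.91) and Sinhcaf (0.91). The 17 points come from 2 libraries and from clusters made on the same genes, their median depths ran from 1424 to 12508 UMIs, and these correlations are descriptions. The naive sum is weighted to Klf2, the member with the highest correlation with it (0.82), while Tfcp2l1 had 0.56. Of the primed members Dnmt3b had 0.93 and Pou3f1 0.76.

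In the E14.5 tail most members were near 0. Dppa3 and Otx2 had no UMI in 2052 cells, which allows up to 0.0957 CPM each, and Zfp42 was at 0.160 CPM and Esrrb at 0.223 CPM. Klf2 at 125 CPM and Klf4 at 109 CPM were expressed in this tissue, as were Pou3f1 at 16.0 CPM and Dnmt3b at 7.21 CPM. Klf2 is known from endothelium and Klf4 from epidermis as well. Zfp42, Dppa3, Esrrb and Tfcp2l1 among the naive members lay under 1 CPM there.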

How the data were processed

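The 3 stages were each measured in a single library of dead-cell-depleted cells by 10x 3′ sequencing. UMI counts per gene and cell, with a numeric cluster code per cell, were deposited by the authors, who made them with Cell Ranger, ignoring reads that mapped to several places, and filtered and clustered cells in Seurat 3.0, keeping cells under 7.5% mitochondrial UMIs and dropping the top and bottom 2%. Their genome build is not given in the sources used here. Counts were summed per code and given as CPM, with exact Poisson intervals for levels, exact binomial intervals for ratios and Clopper-Pearson intervals for shares, all at 95%, and a count of 0 was given as the limit of 3 counts. A gene was counted as higher or lower at 2-fold or more if it had at least 100 UMIs over both groups and 20 CPM in the higher one. For shares, bins and pairs UMIs were drawn from every cell down to 3000, and cells with fewer were not used. Doublets were called with Scrublet (in Scanpy 1.11.5) at an expected rate of 6% and kept unless stated, and the counting rule was tested on simulated data. Named were all 10 members, list genes at least 2-fold apart between the pluripotent-like codes, the lists' other genes as counts with some values beside them, and the 5 genes most like each sum, among genes reaching 50 CPM in a code. The members and lists were chosen with earlier results of these data known. Python 3.11.15, NumPy 2.4.6 and SciPy 1.17.1 were used. Alternatives were other cell filters, denominators, list members, fold limits and depths.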

Additional observations from a re-analysis of the deposited data

Results flagged for a closer look

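Some members were high in groups of cells outside the comparisons above, with a lower bound at least 10-fold over their level in D10 codes 1, 2 and 4. In D10 code 8 (155 cells), Fgf5 stood at 53.7 CPM (55 UMIs) against 0.490 CPM, and Otx2 at 165 CPM against 0.816 CPM. Code 8 had 7 of 9 endoderm markers at or over 20 CPM, summing to 1965 CPM, while its naive members summed to 55.6 CPM. Otx2 also stood at 23.3 CPM in D10 code 7 (257 cells), from 11 UMIs. In the E14.5 tail, Klf2 stood at 693 CPM in code 11 (71 cells), 18.1-fold over those D10 cells. Pou3f1 stood at 111 CPM in tail code 3 (49 cells), at 37.9 CPM in tail code 8 (82 cells) and at 84.8 CPM in tail code 10 (137 cells), against 2.22 CPM. The tail and the culture are separate libraries and none of these differences was tested.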

How the results depend on the processing

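Of 44 alternatives for the list sums in D6 code 2 and D10 code 3 and for the count of members past 2-fold, 31 left the value within its interval or count, 13 moved it and none turned its direction. Of 93 others, for single members, shares of cells and code 5, 61 left the value within its interval, 31 moved it and 1 turned it. All 50 for single members kept their side of 1. The one that turned was the naive sum in D10 code 5 over codes 1, 2 and 4, where an alternative chosen after seeing the data, the list without Klf2 and Klf4, took the ratio from 0.927 to 7.42. For the naive sum in D10 code 3 over D6 code 2, the mean over cells gave 0.546, thinned cells 0.538, the list without Klf2 and Klf4 0.373, and codes 3, 5 and 6 together, chosen after seeing the data, 0.329. That last choice gave 13.1 for the primed sum. For D6 code 2 over codes 1 and 3, the naive ratio was 43.2 as a mean over cells and 59.0 without Klf2 and Klf4, and the primed ratio 0.145 without Dnmt3b. For D10 code 3 over codes 1, 2 and 4, the naive ratio was 10.4 as a mean over cells, 10.3 thinned and 102 without Klf2 and Klf4, and the primed ratio 92.7 without doublets and 82.3 without Dnmt3b. The cause was not tested beyond what each construction shows. Members past 2-fold between D10 code 3 and D6 code 2 were 6, and 7 without doublets or with the other denominator, both adding Esrrb, 8 at 1.5-fold and 6 at 3-fold. Otx2 and Pou3f1 entered the first of these counts only through their D10 levels. No paired analysis was possible because each stage has 1 library. Depth limited Fgf5 in D6 code 2 (35 UMIs), Esrrb in D10 code 5 (3 UMIs) and every member in D10 code 13 (43 cells), and counting intervals do not cover variation between cultures.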
